A study of Mus musculus with 32 samples.

Results

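The leukocyte microRNAs (miRNAs) mmu-miR-142a-3p, mmu-miR-142a-5p, mmu-miR-223-3p, mmu-miR-223-5p and mmu-miR-150-5p, written below without the mouse prefix, were examined in small RNA-seq profiles of a mouse ovarian cancer study. These 5 miRNAs were taken by name from the 1513 mouse miRNAs in the table, because they are widely used marks of blood leukocytes. The choice was made with earlier results of these data known. All 5 were detected in all 32 libraries (19 to 20406 reads each). The study captured extracellular vesicles (EVs), the small membrane particles that cells release, by laying sheets of cellulose nanofibers (CNF sheets) on the moist surfaces of organs in the peritoneal cavity. All mice were females of the strain BALB/cSlc-nu/nu. The labels give an age of 8 weeks and the methods a range of 8 to 10 weeks when the cells were injected. This athymic nude strain lacks most T cells but keeps B cells, natural killer cells and myeloid cells. The transplanted cells were ID8-T6, a subclone of the mouse epithelial ovarian cancer line ID8 chosen for its spread in the peritoneal cavity. Libraries are from 1 subclone in 1 strain.

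In the intraperitoneal (IP) model, ID8-T6 cells were injected into the cavity and the samples were taken on day 14, while control mice received phosphate-buffered saline (PBS). It gave 4 groups of 3 libraries: EVs of the pelvic peritoneum of tumor-bearing mice (tumor EVs), EVs of control mice (normal EVs), tumor tissue, and normal tissue of control mice, which the study describes as ovary. In the orthotopic (OT) model, cells were placed in the left ovarian bursa, and EVs were captured at the pelvis and at the diaphragm on day 0 and day 4, with 5 libraries per site and day. The labels name the upper site diaphragm and the study's text the surface of the liver. The reporting summary says that samples for sequencing were repeats (3) of the same spot, and the sources do not say which libraries of a group came from different mice. The p-values below thus reflect how far libraries of a group spread, which may be technical.

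miRNAs are short RNAs that guide Argonaute proteins to messenger RNAs, mainly through the seed, bases 2 to 8 from the 5′ end. miR-142 is made in nearly all blood-forming lineages, miR-223 is the typical miRNA of granulocytes and monocytes, and miR-150 is that of mature B, T and natural killer lymphocytes, where it restrains the transcription factor Myb. miRNAs of blood cells are also carried in EVs of body fluids. The study states as a limit that the sheets may also hold non-EV material such as lipoproteins. It lists miR-223 and miR-146a among miRNAs associated with lipoproteins and says that these were not significantly detected. In the deposited mouse values miR-223-3p was at 17.7 to 13108 RPM, and what carried it was not tested.

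The mature sequences show what was counted and which members could be mistaken for each other. They are RefSeq sequences (GRCm38.p6), given 5′ to 3′ with the seed in capitals, and were found for 4 of the 5 members.
miR-142a-3p: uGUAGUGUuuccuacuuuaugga
miR-142a-5p: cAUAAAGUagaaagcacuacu
miR-223-3p: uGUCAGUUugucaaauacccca
miR-223-5p: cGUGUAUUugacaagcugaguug
miR-142b: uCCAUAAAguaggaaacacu

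Each of the 4 seeds was different, and 0 other mature mouse miRNAs of the reference shared any of them. The only mature sequence that matched a member within 2 mismatches, the number allowed in mapping, was miR-142b, which is read from the opposite strand of the same locus. Its 20 bases are the reverse complement of positions 4 to 23 of miR-142a-3p, counted from the 5′ end. miR-142b was present at 0 to 0.00899 times the level of miR-142a-3p over the 32 libraries.

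The hairpins show how the arms of a pair come from 1 precursor, with both mature arms in capitals.
Mir142: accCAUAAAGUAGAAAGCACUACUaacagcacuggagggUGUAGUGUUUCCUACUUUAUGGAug
Mir223: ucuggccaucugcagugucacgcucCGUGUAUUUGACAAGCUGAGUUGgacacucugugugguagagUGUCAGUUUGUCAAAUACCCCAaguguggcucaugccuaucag

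Mir142 lies on the plus strand at chr11:87756864-87756927 (GRCm38, GENCODE M21), inside the long noncoding RNA gene Mir142hg and outside its exons, with Mir142b annotated on the minus strand across it. Mir223 lies on the plus strand at chrX:96242817-96242926 in an exon of the noncoding gene F630028O10Rik. Mir150 lies on the plus strand at chr7:45121757-45121821, where no other gene is annotated, and Gm45552 at 96 bases is the nearest gene. The 3 hairpins are on 3 chromosomes, so only the arms of 1 hairpin share a transcript.

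Libraries of the IP model held 483705 to 1585807 reads, those of the OT model on day 0 held 1022869 to 2540577, and those on day 4 only 132483 to 661582. Values are reads per 1000000 miRNA reads (RPM), so a member's RPM is a share of the library and moves when other miRNAs move. In bulk samples, fewer cells of a type and less RNA per cell cannot be told apart, and here the number of EVs cannot be told apart from either. In each comparison of 2 groups a miRNA was called where its log2 fold change of RPM + 10 was beyond 1 in either direction and its Benjamini-Hochberg adjusted p, from limma over all miRNAs tested, was under 0.05 (two-sided). A difference between 2 such fold changes (an interaction) was called on the adjusted p alone. The hepatocyte miRNAs miR-122-5p, miR-122-3p and miR-802-5p made up 0.130% to 17.5% of the reads at the diaphragm on day 0 and 0.000978% to 0.0401% at the pelvis. The upper site thus carried liver miRNAs on day 0. On day 4 they made up 0.00957% to 2.23% at the diaphragm and 0% to 0.124% at the pelvis, and the sites overlapped.

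The members took a larger share of the reads in the EVs of the cavity than in the ovary and tumor tissue sampled. Summed over the 5, they made up 1.23% to 3.85% of the reads in normal EVs, 0.396% to 0.423% in tumor EVs, 0.104% to 0.189% in tumor tissue and 0.0521% to 0.0769% in normal tissue. In the 20 OT libraries, all of them EVs, the sum was 0.667% to 3.58% of the reads. By mean level over the 32 libraries, miR-142a-3p, miR-150-5p and miR-223-3p ranked 36, 37 and 38 of the 1513 miRNAs, miR-142a-5p ranked 57 and miR-223-5p 103.

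**Figure D1:**
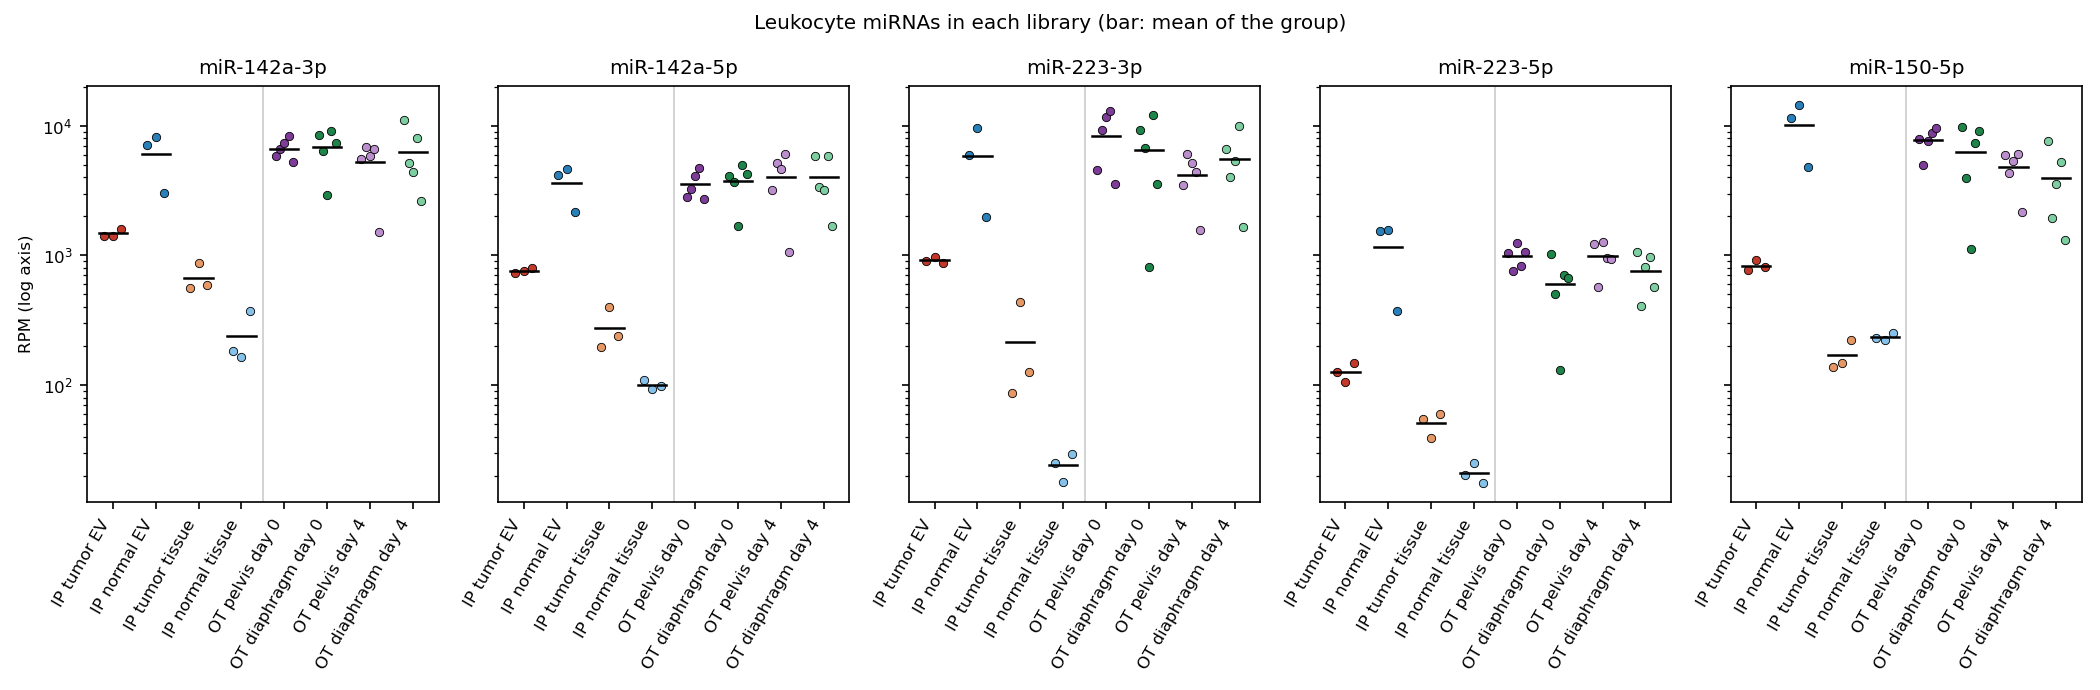
RPM of each of the 5 leukocyte miRNAs (log axis) in each of the 32 libraries, by group. Each point is a library and the bar is the mean of the group (n = 3 in the IP groups, n = 5 in the OT groups). Tumor EVs sit below normal EVs for every member, and the normal tissue libraries hold the lowest miR-223-3p values (17.7 to 29.3 RPM).

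Tumor EVs were compared with normal EVs to ask what a tumor burden changes in the vesicles of the peritoneal surface. All 5 leukocyte miRNAs were lower in tumor EVs. The lymphocyte miRNA miR-150-5p differed most, 12.2-fold by the group means, and miR-142a-3p least, 4.12-fold. The call was made for 5 of 5 members, against 136 of 378 miRNAs called lower (36.0%), and the groups did not overlap for 5 of 5 members, against 169 of 378 miRNAs lower without overlap (44.7%).

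miR-150-5p was at 766, 925 and 815 RPM in tumor EVs and at 11412, 14491 and 4779 RPM in normal EVs. Even the lowest normal library was above every tumor library. Its log2 fold change was -3.46 ± 0.40 (SE, n = 3 against 3, adjusted p by limma = 0.000334), and 11 of 378 miRNAs had a lower fold change.

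miR-223-3p, the main arm of the myeloid miRNA, was at 913, 969 and 869 RPM in tumor EVs and at 5926, 9632 and 1980 RPM in normal EVs. The tumor EV libraries were close to each other, whereas the normal EV libraries spanned a 4.86-fold range. The log2 fold change of miR-223-3p was -2.39 ± 0.53 (SE, n = 3 against 3, adjusted p by limma = 0.00644). Its passenger arm miR-223-5p was at 126, 106 and 149 RPM in tumor EVs and at 1531, 1572 and 369 RPM in normal EVs, with a log2 change of -2.84 ± 0.56 (SE, adjusted p by limma = 0.00368). Both arms of the myeloid hairpin were therefore called lower.

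The pan-leukocyte miR-142a-3p was at 1421, 1422 and 1603 RPM in tumor EVs and at 7092, 8185 and 3033 RPM in normal EVs. Its log2 fold change was -1.91 ± 0.37 (SE, n = 3 against 3, adjusted p by limma = 0.00358). miR-142a-5p, from the other arm, was at 730, 764 and 795 RPM in tumor EVs and 4146, 4601 and 2171 RPM in normal EVs, with a log2 change of -2.17 ± 0.30 (SE, adjusted p by limma = 0.000773). The arms differed from normal EVs by 4.12-fold and 4.77-fold, and all 3 tumor libraries were below all 3 normal libraries for each.

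Normal EV replicate 3 was the lowest of its group for 5 of 5 members. It was also the library with the most miR-451a, the miRNA of red blood cells, at 113085 RPM against 5137 RPM or less in the other normal EVs. Its level of the hepatocyte miRNA miR-122-5p was the highest too, at 191 RPM against 20.9 RPM or less. Its part in the result was not tested, but with any 1 library left out all 5 members were called lower. The median log2 fold change of the 5 members was -2.39, beside -0.53 over all 378 miRNAs tested. Scaling by the median of ratios in place of the library total moved the latter to -0.04 and the split of calls from 61 higher and 136 lower to 83 higher and 94 lower, with all 5 members called lower, at -2.88 for miR-150-5p and -1.33 for miR-142a-3p.

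Of the 9 other leukocyte miRNAs listed, 7 were tested and 5 of these were lower in tumor EVs, with a median log2 fold change of -1.66. miR-146a-5p, which dampens NF-κB signaling, was at 943 to 1299 RPM in tumor EVs and 5438 to 11409 RPM in normal EVs (log2 fold change -2.97 ± 0.32, SE, adjusted p by limma = 0.000219). miR-342-3p fell by 1.69 on the log2 scale (limma adjusted p = 0.00446). miR-155-5p, a miRNA of activated lymphocytes and macrophages, was at 405 to 424 RPM in tumor EVs and 217 to 529 RPM in normal EVs, and it did not pass (0.08 on the log2 scale, limma adjusted p = 0.857). The leukocyte miRNAs thus did not all move as the 5 members did.

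The fall in tumor EVs was not limited to leukocyte miRNAs. Of the listed miRNAs of other cell types, 5 of 5 of epithelium (the miR-200 family, median log2 fold change -2.28), 3 of 3 of muscle (-2.51), 2 of 2 of smooth muscle (-1.78) and the 1 of endothelium that was tested (-3.05) were called lower as well. The 5 of red blood cells (median -0.78) and the 1 hepatocyte miRNA tested (-0.96) were not called. The medians of epithelium and muscle were close to the -2.39 of the members, and the part of these cell types in the values of the members was not tested.

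**Figure D2:**
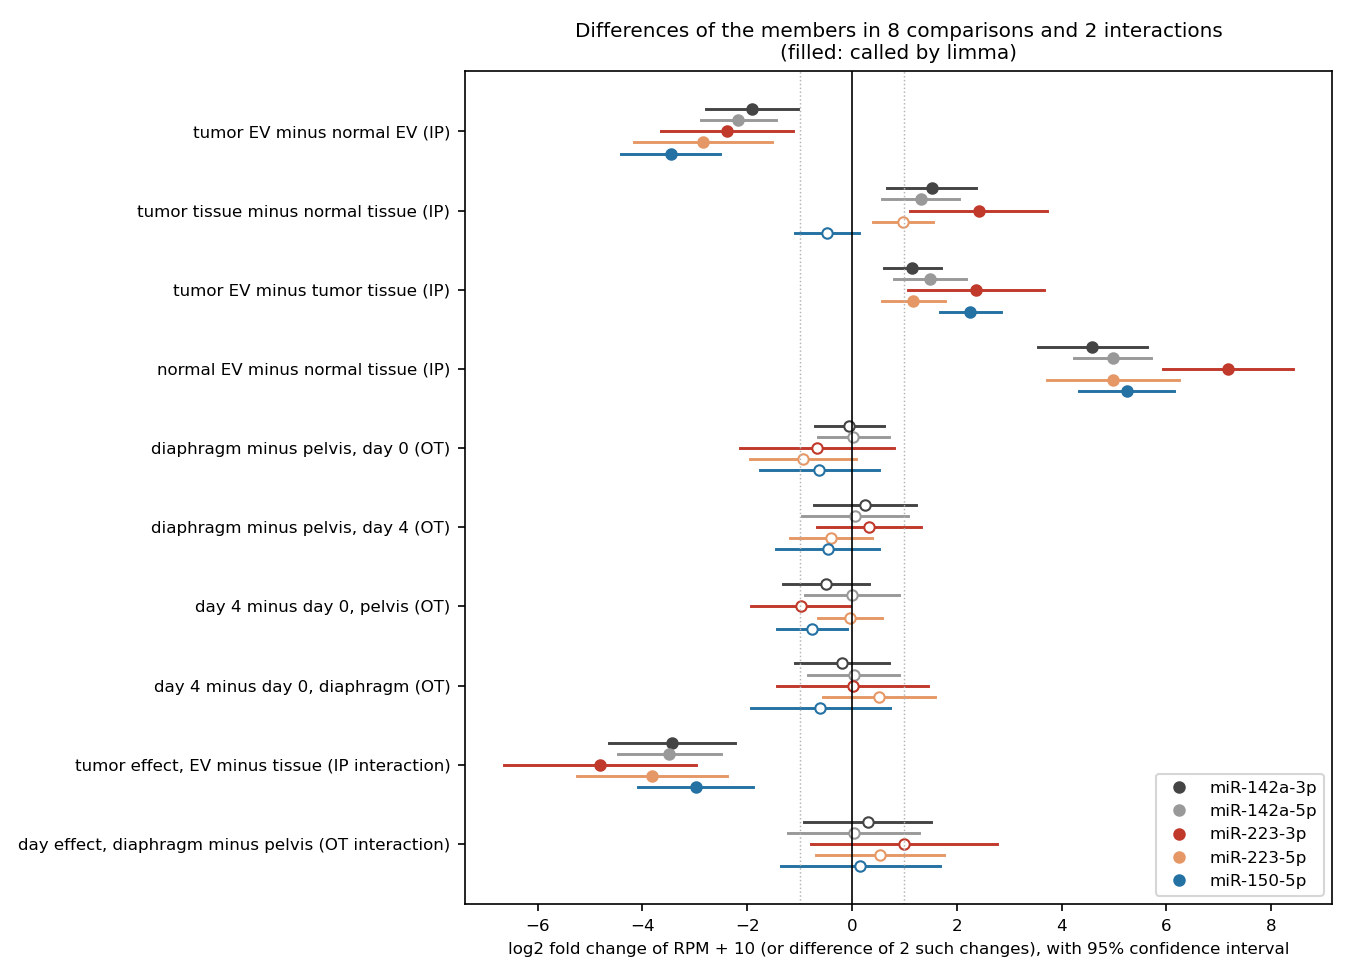
log2 fold changes of the 5 leukocyte miRNAs in each comparison (points) with 95% confidence intervals (lines), with filled points for limma calls. In the 2 lowest rows the value is a difference between fold changes. All 5 are lower in tumor EVs than in normal EVs, and 0 of 5 are called in any of the 4 OT comparisons.

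In tissue the picture was different. Tumor tissue was compared with normal tissue, which also differed in organ, so that tumor and organ cannot be told apart. miR-223-3p was 8.97-fold, miR-142a-3p 2.82-fold and miR-142a-5p 2.76-fold higher in tumor tissue, and miR-150-5p was not higher. Of the 5 members 3 were called higher, against 47 of 357 miRNAs (13.2%), and 4 were higher without overlap of the groups, against 88 of 357 (24.6%).

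miR-223-3p was at 86.8, 434 and 126 RPM in tumor tissue and at 25.1, 17.7 and 29.3 RPM in normal tissue, where it rested on few reads. Its log2 fold change was 2.42 ± 0.55 (SE, n = 3 against 3, adjusted p by limma = 0.0175). Without tumor tissue replicate 2, the library at 434 RPM, it was 4.43-fold higher in tumor tissue and still called (1.77 on the log2 scale, limma adjusted p = 0.00347). That library also held the most miR-122-5p of its group (2427 RPM, against 2.38 and 147 RPM) and the most miR-200b-3p (6469 RPM, against 1585 and 800 RPM), whose part in the result was not tested. miR-223-5p was at 54.7, 39.3 and 59.2 RPM in tumor tissue and 20.3, 25.2 and 17.4 RPM in normal tissue, and its log2 fold change of 0.97 ± 0.25 (SE, adjusted p by limma = 0.0245) was just under the fold threshold. The myeloid arms were the members nearest to absence in normal tissue.

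miR-142a-3p was at 562, 872 and 586 RPM in tumor tissue and at 184, 163 and 370 RPM in normal tissue, with a log2 change of 1.52 ± 0.36 (SE, adjusted p by limma = 0.020). miR-142a-5p was at 195, 399 and 237 RPM in tumor tissue and at 110, 92.5 and 98.9 RPM in normal tissue, with a log2 change of 1.32 ± 0.31 (SE, adjusted p by limma = 0.020). In contrast, miR-150-5p was at 138, 149 and 221 RPM in tumor tissue and at 230, 222 and 254 RPM in normal tissue. All 3 tumor tissue libraries were below the lowest normal one, the library at 221 RPM only narrowly. The difference did not pass (-0.48 ± 0.26, SE, 95% confidence interval -1.09 to 0.14, limma adjusted p = 0.207).

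These tissue calls changed when a normal tissue library was left out. Without normal tissue replicate 1 or replicate 2, 0 members were called (adjusted p 0.0785 to 0.101 for the 3 members called with all libraries), with 4 and 4 at an unadjusted p under 0.05, and without replicate 3 only miR-142a-3p was called, at 1.87 (limma adjusted p = 0.0195). The directions were the same in every fit. Of the other leukocyte miRNAs, 2 of 5 tested were called higher in tumor tissue, and the 5 ran from 0.26 to 1.70 on the log2 scale. Called were miR-155-5p (1.45, limma adjusted p = 0.0118) and miR-147-3p (1.70, limma adjusted p = 0.00311), a miRNA that mouse macrophages make after Toll-like receptor signals. miR-147-3p rested on few reads, at most 32 in any of the 32 libraries.

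The tumor effect in EVs was then tested against the tumor effect in tissue. The difference between these effects was called for 5 of 5 members, all lower in EVs, against 118 of 422 miRNAs lower (28.0%). It was -4.81 ± 0.83 on the log2 scale for miR-223-3p (SE, adjusted p by limma = 0.000773), -3.81 ± 0.65 for miR-223-5p (limma adjusted p = 0.000709), -3.48 ± 0.45 for miR-142a-5p (limma adjusted p = 8.83e-05), -3.44 ± 0.55 for miR-142a-3p (limma adjusted p = 0.000476) and -2.98 ± 0.50 for miR-150-5p (limma adjusted p = 0.00063). For miR-223 and miR-142a the EV and tissue effects had opposite signs. For miR-150-5p both were below 0. The comparisons share libraries and are not independent of each other.

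EVs and tissue of the same treatment were also set side by side. They also differed in RNA extraction kit and in site, the peritoneal surface against ovary or tumor. Kit, site and sample type cannot be told apart. In control mice the members were 25.6-fold to 243-fold higher in EVs than in tissue. The call was made for 5 of 5, against 140 of 390 miRNAs (35.9%), and the groups did not overlap for 5 of 5, against 175 of 390 (44.9%). In the limma fit the members held the 5 highest fold changes of the 390 miRNAs tested. miR-223-3p was at the top with a log2 change of 7.17 ± 0.54 (SE, adjusted p by limma = 2.87e-05), then miR-150-5p with 5.24 ± 0.40 (limma adjusted p = 2.91e-05). miR-223-5p, miR-142a-5p and miR-142a-3p followed with 4.98, 4.98 and 4.59. Median-of-ratios scaling moved the median over all miRNAs from 0.50 to 0.04 and the split of calls from 140 higher and 90 lower to 90 and 110, and the members were then 4.00 to 6.65 higher on the log2 scale, all of them called.

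**Figure D3:**
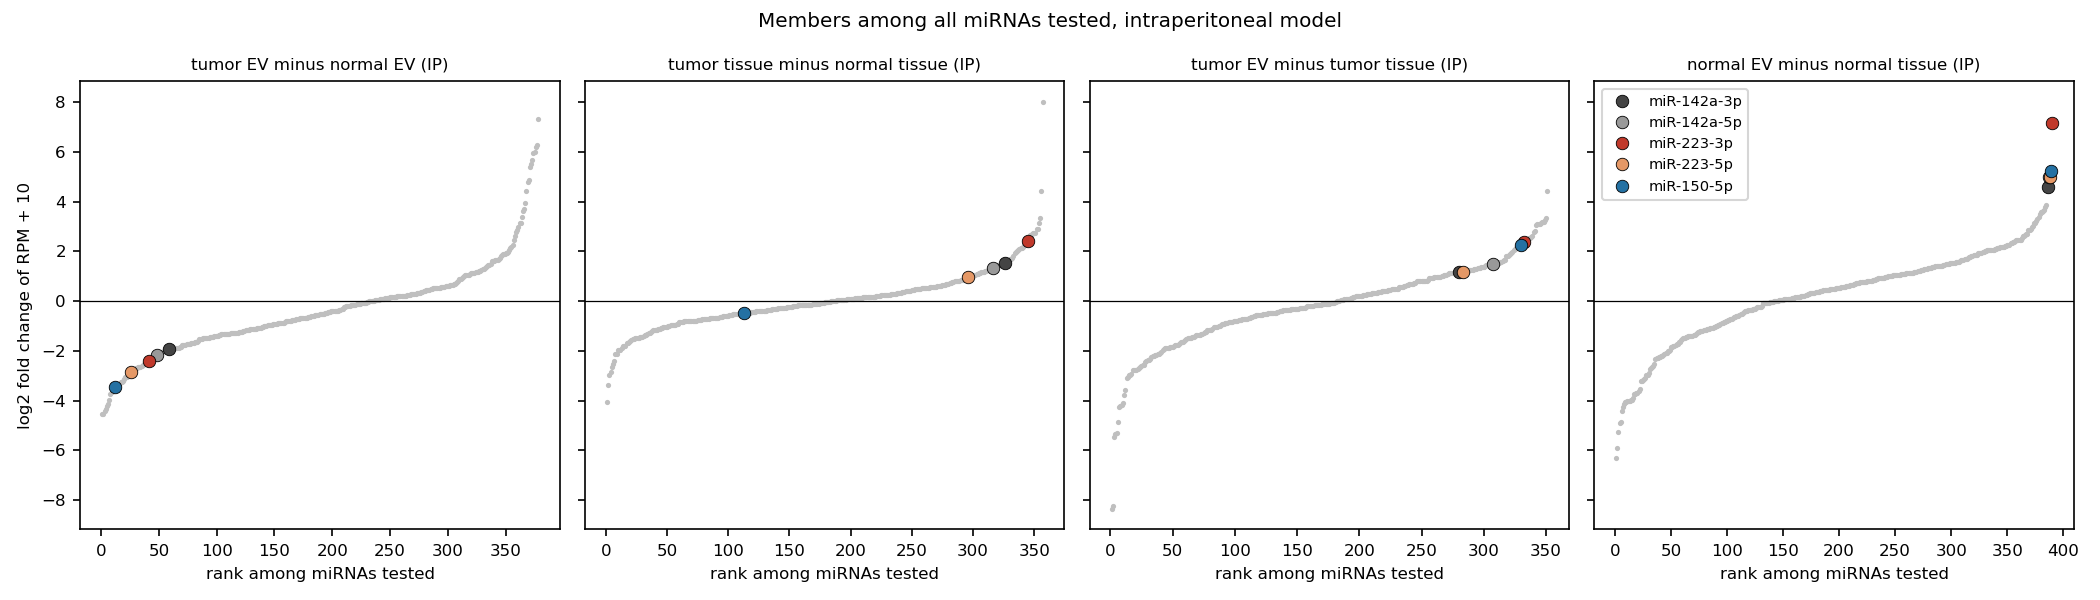
log2 fold change of every miRNA tested (grey) in order of rank in the 4 IP comparisons, with the 5 leukocyte miRNAs marked in color. In normal EVs against normal tissue they take the 5 highest ranks of 390. In tumor EVs against normal EVs they lie among the low fold changes, with 11 to 58 of 378 miRNAs below each.

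In tumor-bearing mice the members were 2.20-fold to 4.93-fold higher in EVs than in tumor tissue. The call was made for 5 of 5, against 84 of 351 miRNAs (23.9%), and the groups did not overlap for 5 of 5, against 117 of 351 (33.3%). The log2 fold change was 2.36 ± 0.54 for miR-223-3p (SE, adjusted p by limma = 0.00899) and 2.26 ± 0.24 for miR-150-5p (limma adjusted p = 0.000415). It was 1.49 for miR-142a-5p, 1.17 for miR-223-5p and 1.15 for miR-142a-3p. The fold of miR-223-3p by the means, 4.25, rested partly on tumor tissue replicate 2, and without it miR-223-3p was 8.61-fold higher in tumor EVs (3.01 on the log2 scale, limma adjusted p = 0.00012). Of the red blood cell miRNAs 2 of 5 were called higher in tumor EVs than in tumor tissue (median 0.98, up to 2.80 for miR-451a), while 5 of 5 of epithelium, 2 of 2 of endothelium and 2 of 2 of smooth muscle were called lower. The part of these cell types was not tested. Not all leukocyte miRNAs shared this direction. miR-146a-5p (-2.42, limma adjusted p = 0.00262), miR-342-5p (-1.46, limma adjusted p = 0.000904) and miR-147-3p (-1.36, limma adjusted p = 0.00424) were lower in tumor EVs than in tumor tissue, while miR-155-5p was higher (1.08, limma adjusted p = 0.0026). miR-342-5p and miR-147-3p rested on few reads, at most 43 and 32 in any of the 32 libraries.

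The OT libraries asked whether EVs differ between the pelvis, near the site of injection, and the diaphragm, and how they change over 4 days. The study's text does not say whether day 0 was before or after the injection. The OT libraries hold no sham-operated group, so surgery and tumor cells cannot be told apart in the change over days. By group mean each of the 5 members was higher in each of the 4 OT groups than in tumor EVs, though no test was made between the models. miR-150-5p had its lowest, median and highest values at 4993, 7970 and 9537 RPM at the pelvis on day 0, 1123, 7313 and 9874 RPM at the diaphragm on day 0, 2179, 5374 and 6015 RPM at the pelvis on day 4, and 1317, 3532 and 7655 RPM at the diaphragm on day 4. The groups overlapped throughout.

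miR-223-3p was at 4566, 9287, 11594, 13108 and 3528 RPM at the pelvis on day 0 and at 9334, 6726, 816, 12206 and 3570 RPM at the diaphragm. On day 4 it was at 3490, 6019, 5208, 4412 and 1560 RPM at the pelvis and at 6652, 3993, 5314, 9930 and 1663 RPM at the diaphragm. It varied more than any other member at the diaphragm on day 0, from 816 to 12206 RPM.

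miR-142a-3p was at 5300 to 8306 RPM at the pelvis on day 0 and at 1526 to 6835 RPM on day 4, and at the diaphragm at 2922 to 9118 and 2647 to 11021 RPM. miR-142a-5p was at 2734 to 4739 and 1065 to 6028 RPM at the pelvis, and at 1681 to 5013 and 1679 to 5886 RPM at the diaphragm. miR-223-5p was the least abundant member, at 756 to 1254 and 568 to 1276 RPM at the pelvis, and at 130 to 1018 and 404 to 1062 RPM at the diaphragm. None of these ranges were separate between sites or days.

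Between diaphragm and pelvis, 0 of 5 members were called on day 0, against 6 of 385 miRNAs in either direction (1.56%), and 0 of 5 on day 4, against 0 of 424 (0.0%). With limma 0 members had an unadjusted p under 0.05 on either day, and with edgeR and DESeq2 0 were called. On day 0 the log2 differences ran from -0.94 for miR-223-5p (95% confidence interval -1.94 to 0.07) to 0.03 for miR-142a-5p (-0.64 to 0.70). On day 4 they ran from -0.47 for miR-150-5p (-1.45 to 0.51) to 0.33 for miR-223-3p (-0.67 to 1.32). Of the 10 intervals, 8 included a difference of 2-fold or more.

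The column headers give each OT library the label NGS001 (replicates 1, 3 and 4) or NGS002 (replicates 2 and 5), whose meaning is not stated. Within NGS001 (n = 3 per group) the site differences of the members on day 0 were -1.15 to -0.22, and within NGS002 (n = 2 per group) -0.62 to 0.40. On day 4 they were -0.27 to 0.71 and -0.95 to 0.20. On day 0 all 5 members were below 0 within NGS001. The signs were mixed within NGS002 on day 0 and within both labels on day 4.

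Between day 4 and day 0 at the pelvis, 0 of 5 members were called, against 97 of 403 miRNAs in either direction (24.1%), with 2 members at an unadjusted p under 0.05. These were miR-223-3p, at -0.98 ± 0.44 (SE, n = 5 against 5, limma adjusted p = 0.125), and miR-150-5p, at -0.76 ± 0.31 (limma adjusted p = 0.0901). Both crossed the threshold with other scalings. With median-of-ratios scaling, which moved the median over all miRNAs from 0.18 to -0.10 and the split of calls from 76 higher and 21 lower to 58 and 51, miR-223-3p was at -1.31 (limma adjusted p = 0.0152) and miR-150-5p at -1.09 (limma adjusted p = 0.0103). edgeR (-1.34 and -1.05) and DESeq2 (-1.37 and -1.06) called the same 2 members. Within NGS001 miR-223-3p was at -1.04 and miR-150-5p at -0.49, and within NGS002 at -0.90 and -1.16. The remaining members were at -0.49 (miR-142a-3p), -0.03 (miR-223-5p) and 0.00 (miR-142a-5p, 95% confidence interval -0.91 to 0.91). Over the same days all 5 red blood cell miRNAs listed were called higher at the pelvis (median log2 fold change 3.53), with 0 of 5 called by edgeR and 2 by DESeq2.

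Between day 4 and day 0 at the diaphragm, 0 of 5 members were called, against 75 of 407 miRNAs in either direction (18.4%), with 0 at an unadjusted p under 0.05 and 0 called by edgeR or DESeq2. The log2 differences ran from -0.60 for miR-150-5p (95% confidence interval -1.93 to 0.73) to 0.51 for miR-223-5p (-0.56 to 1.58). The header labels disagreed here. Within NGS001 all 5 members were higher on day 4, by 0.26 to 1.02, and within NGS002 all 5 were lower, at -1.91 to -0.26. A difference in the day effect between the sites was not called for any member by limma (0 of 5, 0 at an unadjusted p under 0.05, 0 by edgeR or DESeq2), against 2 of 446 miRNAs in either direction (0.448%), and the difference for miR-223-3p was 0.99 (95% confidence interval -0.79 to 2.78). Of the other leukocyte miRNAs, miR-147-3p rose on day 4 at the pelvis by 2.08 (limma adjusted p = 0.000172) and at the diaphragm by 1.95 (limma adjusted p = 0.000105) on the log2 scale, from 0.662 to 4.02 RPM on day 0 to 19.2 to 75.5 RPM on day 4. It rested on few reads, 0 to 32 per library over the 32 libraries, and the day 4 libraries were shallow.

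Ratios between members within a library do not depend on how the library is scaled. They put the myeloid miR-223-3p against the lymphoid miR-150-5p and each of these against miR-142a-3p. In tumor EVs the ratio of miR-223-3p to miR-150-5p was 1.05 to 1.19, with miR-223-3p the higher in 3 of 3 libraries, and in normal EVs it was 0.414 to 0.665, with 0 of 3. In tumor tissue it was 0.570 to 2.92 and in normal tissue 0.0798 to 0.115. So miR-223-3p took a higher place relative to miR-150-5p in both kinds of tumor sample, without overlap. With the passenger arm miR-223-5p in its place, the ratio overlapped between tumor and normal EVs but not between tumor and normal tissue. The ratio with miR-223-5p was not tested.

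The log2 ratio of miR-223-3p to miR-150-5p, taken on RPM + 10, differed by 1.07 between tumor and normal EVs. Between tumor and normal tissue it differed by 2.90. For each the exact permutation test gave p = 0.1, the smallest it can give with 3 libraries against 3, and the adjusted p over 24 ratio tests was 0.218. The ratio of miR-150-5p to miR-142a-3p went the other way. It was 0.508 to 0.650 in tumor EVs against 1.58 to 1.77 in normal EVs, and 0.171 to 0.378 in tumor tissue against 0.687 to 1.36 in normal tissue, again without overlap (exact permutation p = 0.1 for each, adjusted p = 0.218). The ratio of miR-223-3p to miR-142a-3p overlapped between tumor and normal EVs (0.542 to 0.682 against 0.653 to 1.18, exact permutation p = 0.2). In tissue it was 0.154 to 0.498 in tumor tissue against 0.0792 to 0.137 in normal tissue, without overlap in RPM. The ratios of RPM + 10, on which the test was run, did overlap there (log2 difference 0.90, exact permutation p = 0.2, adjusted p = 0.310).

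**Figure D4:**
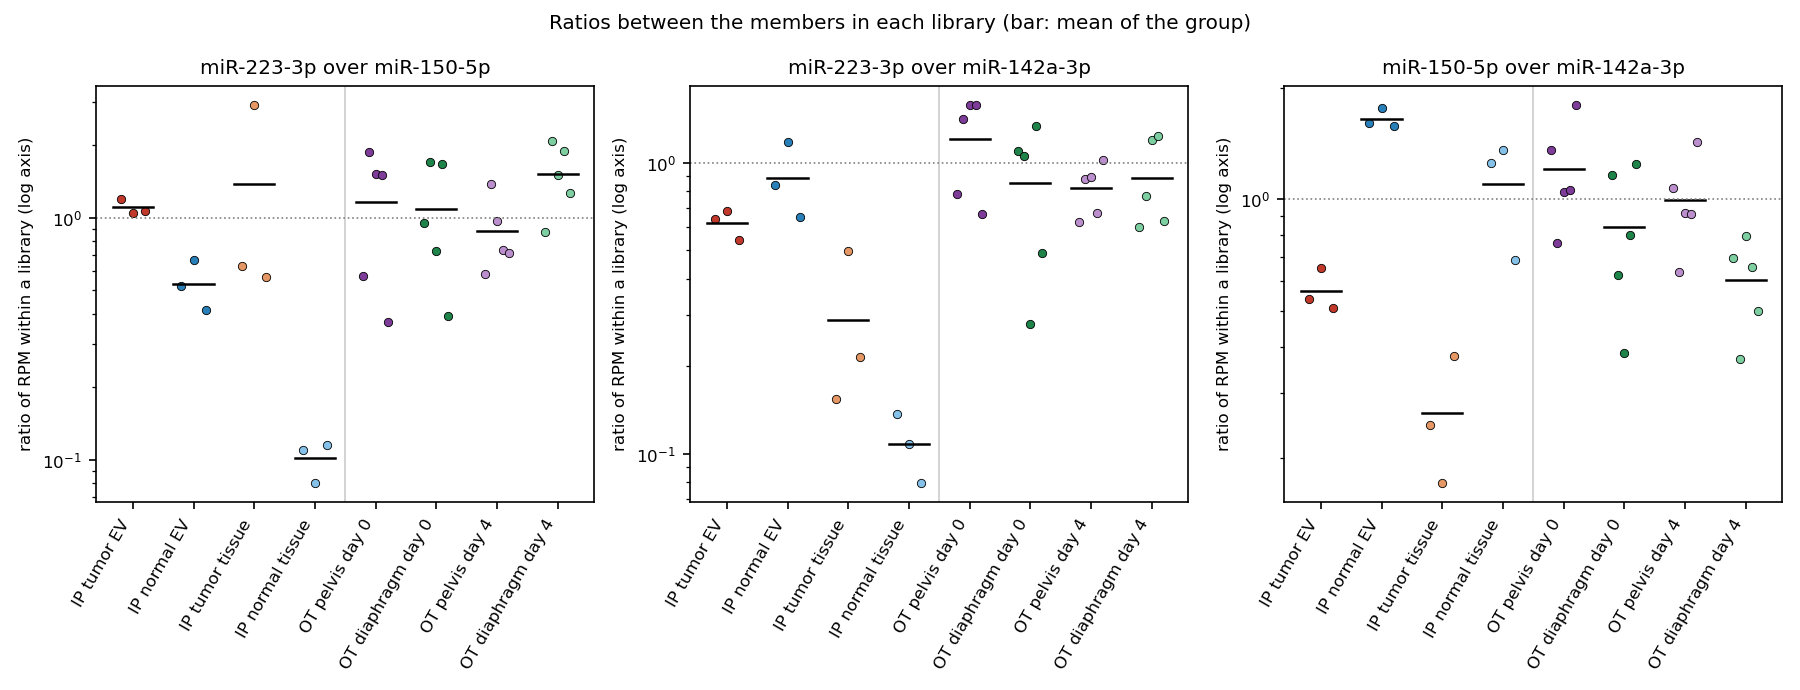
Ratios of RPM between members within each library (log axis), by group, where each point is a library, the bar is the mean of the group and the dotted line marks a ratio of 1. The ratio of miR-223-3p to miR-150-5p is above 1 in 3 of 3 tumor EV libraries and below 1 in 3 of 3 normal EV libraries.

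In the OT model the ratio of miR-223-3p to miR-150-5p on day 4 had a mean of 1.52 ± 0.48 (SD, n = 5) at the diaphragm and 0.877 ± 0.314 (SD, n = 5) at the pelvis, a log2 difference of 0.79 (exact permutation p = 0.0476, adjusted p = 0.218). On day 0 the log2 difference between the sites was -0.04 (exact permutation p = 0.968). The ratio of miR-150-5p to miR-142a-3p on day 4 was 0.603 ± 0.169 (SD, n = 5) at the diaphragm and 0.994 ± 0.289 (SD, n = 5) at the pelvis (log2 difference -0.72, exact permutation p = 0.0317, adjusted p = 0.218). Within NGS001 these 2 log2 differences were 0.86 and -0.44, and within NGS002 0.70 and -1.15, so the directions held within both labels. Between same-numbered libraries on day 4, the ratio of miR-223-3p to miR-150-5p was higher at the diaphragm in 5 of 5 pairs and that of miR-150-5p to miR-142a-3p lower in 5 of 5. On day 0 these counts were 3 of 5 and 5 of 5. The paired exact permutation test gave p = 0.0625 for both on day 4, the smallest it can give with 5 pairs (adjusted p = 0.375). After adjustment 0 of the 24 ratio tests passed, with 2 at an unadjusted p under 0.05.

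The arms of a hairpin kept different proportions. miR-142a-5p was at 0.268 to 0.915 times the level of miR-142a-3p over the 32 libraries, with a median of 0.568. miR-223-5p ranged from 0.0578 to 1.42 times the level of miR-223-3p, with a median of 0.167. The mean of this ratio was 0.140 in tumor EVs, 0.203 in normal EVs, 0.397 in tumor tissue and 0.941 in normal tissue. The normal tissue libraries were at 0.808, 1.42 and 0.595, with 17.4 to 29.3 RPM for each arm. Tumor tissue replicate 1 (0.630) and replicate 5 of the pelvis on day 4 (0.599) were above the lowest of these. miR-150-3p was present at 0.00412 to 0.0336 times the level of miR-150-5p. These ratios compare sequences with their own ligation and mapping efficiency and are descriptions.

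By group means miR-223-3p ran from the pelvis on day 0 (8417 RPM) through the diaphragm on day 0 (6530), normal EVs (5846), the diaphragm on day 4 (5511) and the pelvis on day 4 (4138) to tumor EVs (917), tumor tissue (216) and normal tissue (24.0). The 5 groups at the top overlapped with their neighbors, as did tumor EVs (869 to 969 RPM) with the 816 RPM of a diaphragm library of day 0, and the 3 lowest groups were apart from each other. For miR-150-5p the order was normal EVs (10228 RPM), pelvis (7797) and diaphragm (6281) on day 0, pelvis (4779) and diaphragm (3940) on day 4, tumor EVs (835), normal tissue (235) and tumor tissue (169). Here tumor EVs stood apart from all other EV libraries, whose lowest value was 1123 RPM.

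Some EV libraries were low for the whole set. In 4 of 6 EV groups (normal EVs, the diaphragm on day 0, and the pelvis and the diaphragm on day 4) the library with the lowest member sum was the one with the highest miR-451a of its group. At the diaphragm on day 0 this was replicate 3, with a member sum of 6672 RPM against 21295 RPM or more in the others, miR-451a at 102989 RPM and the hepatocyte miRNA miR-122-5p at 174591 RPM. On day 4 it was replicate 5 at the pelvis (member sum 7265 RPM, miR-451a 84509 RPM) and replicate 5 at the diaphragm (7879 RPM, 62012 RPM). In each of these 4 groups the same library also had the most miR-122-5p. At the pelvis on day 0 the library with the lowest member sum, replicate 5, had the most miR-122-5p too (401 RPM, against 131 RPM or less). How often such matches arise by chance in groups of 3 or 5 libraries was not tested. The part of red blood cell and liver miRNAs in these values was not tested. With each of these libraries left out, 0 members were called in the OT comparisons.

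**Figure D5:**
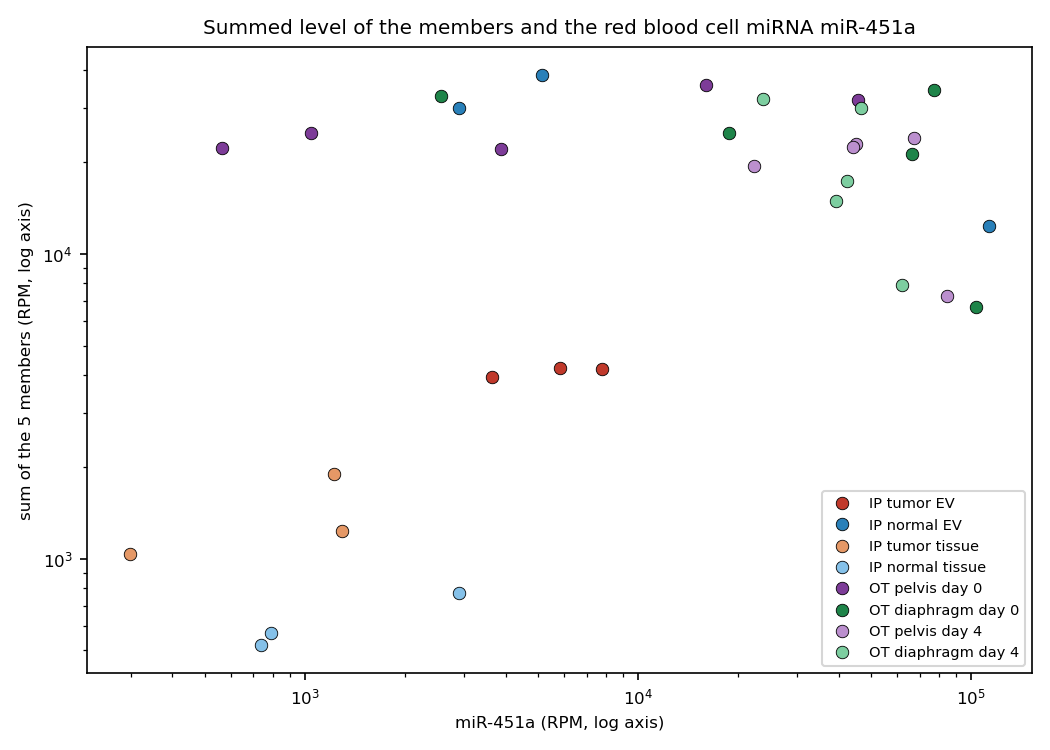
Sum of the 5 leukocyte miRNAs against miR-451a, the miRNA of red blood cells, in the 32 libraries (RPM, both axes log), colored by group. Tissue libraries lie at the bottom (521 to 1894 RPM of members), tumor EVs at 3956 to 4231 RPM, and the other EV libraries at 6672 to 38481 RPM over the range of miR-451a.

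Over the 32 libraries the members followed each other closely in level, with Spearman correlations (rho) of 0.93 between miR-142a-3p and miR-223-3p, 0.87 between miR-142a-3p and miR-150-5p and 0.79 between miR-223-3p and miR-150-5p. These points share groups, library totals and depth, and the correlations are descriptions. Taken as deviations from the group means, the values were 0.81, 0.66 and 0.48. The arms of miR-223 were at 0.39 by that measure, whereas miR-223-5p and miR-150-5p were at 0.79. With miR-451a the deviations of miR-223-3p were at -0.00367, those of miR-150-5p at -0.31 and those of miR-223-5p at -0.42.

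The other miRNAs with the most similar pattern were sought among 211 with a mean of 100 RPM or more. For miR-150-5p these were miR-139-5p (rho = 0.95 over 32 libraries), miR-26b-5p, let-7g-5p, miR-1843b-5p and miR-32-5p by level, and miR-181a-5p (rho = 0.88), miR-139-5p, miR-26b-5p, miR-1843b-5p and miR-146b-5p by deviation from the group mean. For miR-223-3p they were miR-339-5p (rho = 0.90), miR-23a-3p, miR-26b-5p, miR-139-5p and miR-30b-5p by level, and miR-652-3p (rho = 0.90), miR-362-3p, miR-199b-5p, miR-339-5p and miR-19a-3p by deviation. For miR-142a-3p they were miR-26b-5p (rho = 0.90), miR-32-5p, miR-339-5p, miR-139-5p and miR-29a-3p by level, and miR-652-3p (rho = 0.85), miR-342-3p, miR-374b-5p, miR-339-5p and miR-199b-5p by deviation. By deviation miR-223-3p and miR-142a-3p had miR-652-3p, miR-339-5p and miR-199b-5p in common, and miR-150-5p shared none of its 5 with either.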

How the data were processed

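Small RNA-seq of 12 IP and 20 OT libraries was used. The authors made libraries with a small RNA ligation kit, used CLC Genomics Workbench 9.5.3 to assign reads to the miRNAs of miRBase 22, allowing 2 mismatches, and deposited RPM values of 1513 mouse miRNAs. Dividing a library's deposited RPM by its smallest value above 0 gave whole numbers (100.0% of values, tolerance 0.001), and these were taken as the reads. 0 of 52 library pairs within groups were identical. 0 sample columns were left unused. The genome build of the mapping was not given in the sources used here, and loci and sequences are those of GRCm38.

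Each comparison used the libraries of its groups in limma 3.58.1 (R 4.3.3, trend, two-sided) on log2(RPM + 10), a scale that understates changes of low miRNAs, over miRNAs at 10 RPM or more in as many libraries as the smaller group, with Benjamini-Hochberg adjustment over all miRNAs tested. Interactions were called at an adjusted p under 0.05. Confidence intervals are at 95%. Ratios of RPM + 10 were compared by exact two-sided permutation over libraries, and their log2 differences are on that scale. The ratios printed, and the log2 differences of ratios within NGS001 and NGS002, are of RPM. Alternatives were pseudocounts of 1 and 50 RPM, no filter, a filter of 100 RPM, median-of-ratios scaling, edgeR 4.0.16 and DESeq2 1.42.0 on the recovered reads, a replicate block, 1 fit over all libraries of the model, the header label as a covariate, and each library left out. The limma, edgeR and DESeq2 fits were also run on simulated data with noise independent between miRNAs and libraries. That simulation lacked the shared deviations of same-numbered libraries described below, and no result above rests on it.

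Same-numbered libraries deviated together (every pair's correlation over 0.1) in 5 of 8 comparisons: tumor against normal EVs (0.169 to 0.271), normal EVs against normal tissue (0.182 to 0.255), both site comparisons (0.397 to 0.704 and 0.119 to 0.737) and the pelvis over days (0.189 to 0.631). The members and the lists of other miRNAs were chosen with earlier results of these data known. Named were the 5 members, up to 4 of a list by mean RPM, list miRNAs called where members were discussed, and the 5 miRNAs most similar to each of 3 members.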

Additional observations from a re-analysis of the deposited data

Results flagged for a closer look

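The tumor effect differed between EVs and tissue for all 5 members in the limma interaction, by -3.44 for miR-142a-3p, -3.48 for miR-142a-5p, -2.98 for miR-150-5p, -4.81 for miR-223-3p and -3.81 for miR-223-5p on the log2 scale, each lower in EVs. Normal tissue was ovary and the EV samples were not, so organ and tumor cannot be told apart in the tissue term.

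Among 40 sets of 5 libraries, 2 held a value far from the others (chance gives about 1 in 20). miR-142a-3p at the pelvis on day 4 was at 1526 RPM in replicate 5, against 5569 RPM or more in the other 4 libraries. The ratio of miR-223-5p to miR-223-3p at the diaphragm on day 4 was 0.345 in replicate 5, against 0.160 or less in the other 4.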

How the results depend on the processing

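All 5 members were called lower in tumor EVs than in normal EVs, higher in normal EVs than in normal tissue, and lower in the IP interaction under each alternative run. In tumor against normal tissue, leaving out 1 library gave 0 to 4 members called higher (3 with all libraries), and the filter of 100 RPM left out both arms of miR-223. miR-223-5p was called higher there with a pseudocount of 1 RPM (1.24), edgeR (1.29) and DESeq2 (1.28). In tumor EVs against tumor tissue miR-142a-3p was not called by edgeR (0.98) and miR-223-5p not with a pseudocount of 50 RPM (0.81). At the pelvis over days, 2 members were called lower with median-of-ratios scaling, 2 with edgeR and 2 with DESeq2, beside 0 in limma on RPM. With the replicate number as a block, 5 members were lower in tumor EVs and 3 higher in tumor tissue, and no call of a member changed.

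Values near 0 in the OT model changed sign, and the cause was not tested. With median-of-ratios scaling, edgeR and DESeq2 in this order, miR-142a-3p between sites on day 0 was at 0.13, 0.087 and 0.15, miR-142a-5p over days at the diaphragm at -0.34, -0.14 and -0.19, miR-223-3p there at -0.36, -0.39 and -0.44, and the OT interaction of miR-142a-5p at -0.048, -0.080 and -0.056. miR-142a-5p over days at the pelvis was at 0.00372 with a pseudocount of 50 RPM. Leaving out 1 library gave ranges across 0. Between sites they were -0.18 to 0.23 (miR-142a-3p) and -0.10 to 0.29 (miR-142a-5p) on day 0 and -0.15 to 0.52 and -0.36 to 0.34 on day 4. Over days they were -0.20 to 0.42 (miR-142a-5p) and -0.13 to 0.16 (miR-223-5p) at the pelvis, and -0.47 to 0.075 (miR-142a-3p), -0.23 to 0.31 (miR-142a-5p) and -0.62 to 0.39 (miR-223-3p) at the diaphragm. In the OT interaction they were -0.10 to 0.57 (miR-142a-3p), -0.38 to 0.31 (miR-142a-5p) and -0.38 to 0.48 (miR-150-5p). The log2 ratio of miR-223-3p to miR-150-5p ranged from -0.30 to 0.82 between tumor EVs and tumor tissue, from -0.39 to 0.27 between sites on day 0 and from -0.57 to 0.011 over days at the pelvis, and that of miR-223-3p to miR-142a-3p from -0.065 to 0.19 between sites on day 4 and from -0.14 to 0.42 over days at the diaphragm. With 3 libraries per group no exact test of a ratio can go below 0.1, and the shallow day 4 libraries (132483 reads at the least) limit those comparisons.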
